A study of Mus musculus with 8 samples.

Results

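Small RNA was followed on 12 named genes whose locus lies on that of a piRNA cluster, out of 3588 named genes and 5096 features listed with values for the soluble supernatant and the whole lysate of adult mouse testis. A gene was taken when its deposited locus shared at least 1 bp with that of any of the 181 listed piRNA clusters. MicroRNA, small structured RNA and unannotated assembled features were left out by name, as was Lars2, and the rule itself uses no expression value. The 12 genes share their loci with 14 clusters. In each of the 14 pairs the deposited gene and cluster loci were identical. A deposited locus can be wider than the gene: RefSeq gives 1700020N18Rik 1151 bp (GRCm38.p6) in a locus of 2952 bp and Mif 925 bp in a locus of 2313 bp. The deposited loci therefore do not show how far the transcripts themselves overlap. The nearest named genes that were not taken lay 88 bp (Gm9731, cluster 84), 125 bp (Fkbp4, cluster 47) and 379 bp (Cbl, cluster 95) from a cluster, with 117, 1.46 and 19.97 FPKM in supernatant against 138, 1.88 and 20.43 FPKM in lysate. Mir469, at 103175 FPKM in supernatant and 171546 FPKM in lysate, was the only overlapping feature left out by its name.

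FPKM, the unit of all levels, is a fragment count adjusted for the length of the feature and the size of the library. The libraries hold RNA of 19 to 33 nt from C57BL/6 mice of at least 6 weeks. Apart from that of sorted round spermatids, they come from the purification of the chromatoid body, a perinuclear RNA and protein granule of these cells. Tubule cells were fixed with formaldehyde, and centrifugation of the sonicated lysate gave the supernatant and pellet 1. Pellet 1 was sonicated again and filtered, and pellet 2 was taken for immunoprecipitation (IP). The groups were supernatant (1 library), pellets 1 and 2 (1 library each, with 1 deposited pellet column), IP with an antibody to MVH (2 libraries in 1 column), control IP with an antibody to acrosin, called ACR IP (1 library), sorted round spermatids labelled hetMIWI (1 library) and lysate (1 library). MVH is the mouse vasa homolog DDX4, a core protein of the granule, and acrosin is a protease of the acrosome. MIWI is the PIWI protein PIWIL1, and nothing more of the round spermatids' genotype is given. With 1 column of values per group no difference has a replicate check, and each compares libraries and not conditions.

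PIWI-interacting RNAs (piRNAs) are germline small RNAs, longer than microRNAs, that are cut from long single-stranded precursor transcripts and loaded onto PIWI proteins. In the adult mouse testis most are pachytene piRNAs. They are made from intergenic clusters switched on in meiotic spermatocytes by the transcription factor A-MYB, and they are carried by MILI and MIWI into round spermatids, where PIWI proteins gather in the chromatoid body. Precursor transcripts of such clusters were often annotated as noncoding RNA genes before their piRNAs were known, and other clusters lie beside or within coding genes. Of the 12 genes, RefSeq classes 5 as long noncoding RNA (1700020N18Rik, D130017N08Rik, Gm5878, 1700001L05Rik and Gm10069), 6 as protein-coding (1700006A11Rik, Tmem194, Mif, Stox1, Kcnk10 and Eif2c2) and 1, the zinc finger gene Zfp389, as a transcribed pseudogene. Eif2c2, now Ago2, encodes the Argonaute protein that cuts target RNA in the microRNA pathway. Mif encodes a secreted cytokine, Stox1 a DNA-binding winged-helix protein, Kcnk10 a potassium channel and Tmem194, now Nemp1, a protein of the nuclear envelope.

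A-MYB binds promoters of many pachytene piRNA genes. A promoter window of 300 bases, from 250 before to 50 after the annotated start, was on hand for 7 of the 12 genes (RefSeq, GRCm38.p6); Kcnk10 has 2 such windows, which makes 8. Entries for 1700006A11Rik, Gm5878, Zfp389, Eif2c2 and Gm10069 were not used here. The letters searched were the MYB element, TAACNG or CAACNG, on both strands (CNGTTA or CNGTTG in reverse). At least 1 match was found in 5 of the 8 windows, against 49.7% of all 32851 promoters, and at least 2 in 3 of the 8, against 17.2%. The windows with 2 matches belong to 3 of the noncoding genes and are printed 5′ to 3′ on the gene's strand with the matches in capitals, since they show where those letters stand relative to the starts of genes at piRNA loci. They lie at chr1:91405980-91406279 (minus strand), chr5:143758104-143758403 (plus strand) and chr15:83367248-83367547 (minus strand) of GRCm38.p6.
1700020N18Rik: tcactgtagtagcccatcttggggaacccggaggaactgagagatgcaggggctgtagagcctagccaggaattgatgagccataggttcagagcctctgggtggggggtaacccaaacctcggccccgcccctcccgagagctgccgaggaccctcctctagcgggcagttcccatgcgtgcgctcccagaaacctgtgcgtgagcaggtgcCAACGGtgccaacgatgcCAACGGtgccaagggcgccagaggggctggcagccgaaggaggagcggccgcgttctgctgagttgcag
D130017N08Rik: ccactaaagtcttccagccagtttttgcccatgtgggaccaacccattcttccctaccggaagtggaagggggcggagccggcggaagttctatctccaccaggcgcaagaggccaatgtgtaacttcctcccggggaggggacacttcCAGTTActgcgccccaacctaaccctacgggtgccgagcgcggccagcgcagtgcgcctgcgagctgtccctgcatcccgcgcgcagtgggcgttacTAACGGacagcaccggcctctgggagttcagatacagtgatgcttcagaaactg
1700001L05Rik: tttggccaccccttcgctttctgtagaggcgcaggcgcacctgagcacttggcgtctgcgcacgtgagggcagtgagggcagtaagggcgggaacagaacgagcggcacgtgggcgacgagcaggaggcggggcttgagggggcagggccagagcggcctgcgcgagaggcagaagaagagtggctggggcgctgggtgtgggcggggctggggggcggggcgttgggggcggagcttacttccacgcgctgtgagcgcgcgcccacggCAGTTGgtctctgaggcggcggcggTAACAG
The matches began 37 and 19 bases before the start of 1700020N18Rik, 101 and 4 bases before that of D130017N08Rik, and 20 and 45 bases after that of 1700001L05Rik. Single matches were found 222 bases before the start of Mif and 14 bases before that of Tmem194. These letters were not in the windows of Stox1 and Kcnk10.

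Of the 12 genes, 11 were among the 100 named genes with the highest FPKM in supernatant and in lysate, and Gm10069 was not. FPKM is adjusted for length, so this is not an order by number of reads. The median of the 12 was 298 FPKM in supernatant and 327 FPKM in lysate. It was 1.68 and 1.64 FPKM for the other 3576 named genes, of which 1 reached the members' median in either column. Of the 20 named genes with the highest levels, 9 were members in supernatant and 9 in lysate. The 12 genes carried 24.7% of the FPKM summed over named genes in supernatant, against 27.6% in lysate. These levels lay in the range of piRNA clusters: the 14 clusters that share their loci had a median of 302 FPKM in supernatant and 292 FPKM in lysate, and the other 167 clusters 383 and 399 FPKM. Reads of a gene and its cluster at 1 locus are not independent, and the way reads were divided between them was not given in the sources used here.

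**Figure D1:**
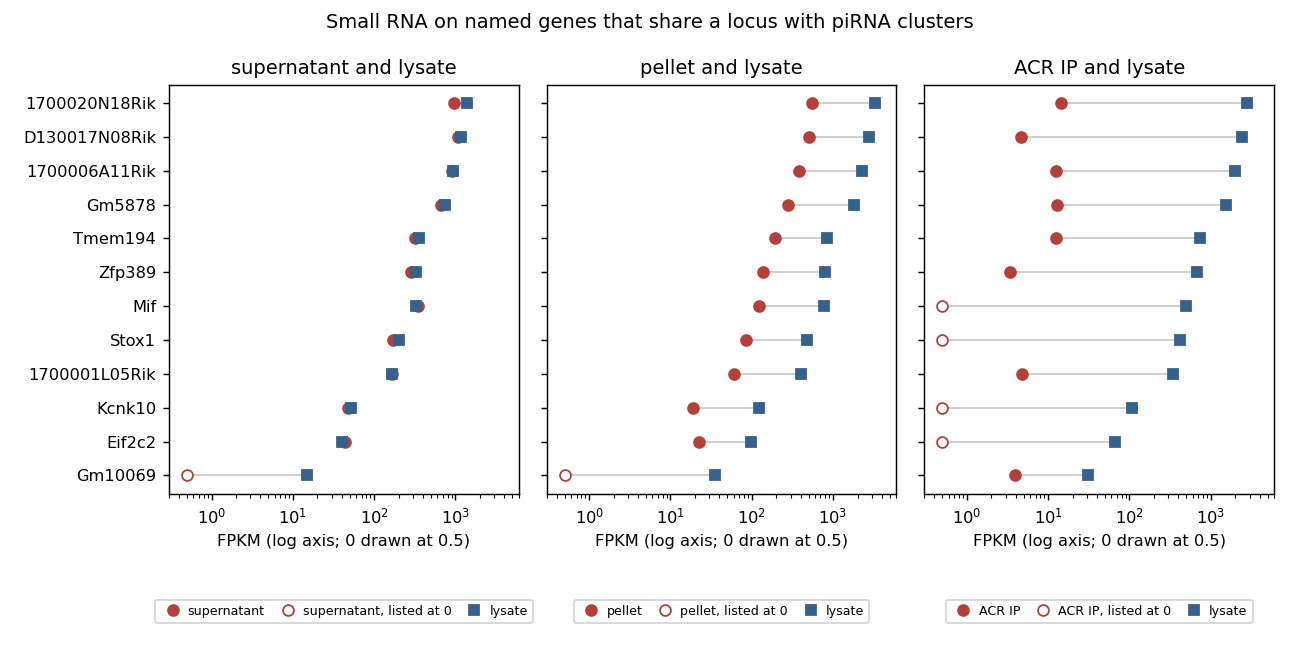
FPKM (log axis) of each gene in the fraction and lysate columns of the supernatant, pellet and ACR IP tables, which were normalized separately. Fraction and lysate points lie close together for the supernatant, and the fraction lies below the lysate for all 12 genes in the pellet and ACR IP tables.

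Among the noncoding genes, 1700020N18Rik (chromosome 1, 93299655 to 93302606, mm9, cluster 6) had 966 FPKM in supernatant and 1374 FPKM in lysate, the highest lysate level of any named gene. D130017N08Rik (chromosome 5, 144519223 to 144527980, cluster 33) had 1090 FPKM in supernatant and 1158 FPKM in lysate, and the order of the pair was reversed: the level of 1700020N18Rik was 0.887 times that of D130017N08Rik in supernatant and 1.19 times in lysate. Gm5878 (chromosome 6, 85060731 to 85076088, cluster 49) had 665 FPKM in supernatant and 749 FPKM in lysate. These 3 noncoding genes were all below lysate, by log2 ratios of (FPKM + 1) of −0.51, −0.09 and −0.17. The other 2 stood lower and apart from each other. 1700001L05Rik (chromosome 15, 83184125 to 83197727, cluster 171) had 166 FPKM in supernatant and 168 FPKM in lysate, a log2 ratio of −0.01. Gm10069 (chromosome 6, 128388775 to 128476738, cluster 47) was listed at 0 in supernatant and at 14.9 FPKM in lysate, while its cluster had 286 FPKM in supernatant and 275 FPKM in lysate.

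The coding genes and the pseudogene spanned a similar range. 1700006A11Rik (chromosome 3, 124103059 to 124128946, cluster 16) had 897 FPKM in supernatant and 945 FPKM in lysate. Tmem194 (chromosome 10, 127114121 to 127138103, cluster 112) had 315 FPKM in supernatant and 355 FPKM in lysate. Mif (chromosome 10, 75322098 to 75324410, cluster 108) had 348 FPKM in supernatant and 325 FPKM in lysate. Of these 3, Mif alone was higher in supernatant, with a log2 ratio of 0.10 against −0.08 for 1700006A11Rik and −0.17 for Tmem194. Stox1 (chromosome 10, 62119246 to 62188847), which shares its locus with clusters 100, 102 and 103, had 170 FPKM in supernatant and 203 FPKM in lysate, a log2 ratio of −0.25. Zfp389 (chromosome 13, 21595440 to 21598393, cluster 142) had 281 FPKM in supernatant and 329 FPKM in lysate, a log2 ratio of −0.23. Both were thus below lysate, like most of the set. Kcnk10 (chromosome 12, 99672204 to 99816150, cluster 134) had 48.2 FPKM in supernatant and 51.4 FPKM in lysate, a log2 ratio of −0.09. Eif2c2 (chromosome 15, 72930274 to 73015377, cluster 169) had 43.3 FPKM in supernatant and 40.6 FPKM in lysate, a log2 ratio of 0.09.

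In the supernatant, small RNA on these genes was therefore close to its lysate level. None of the 12 was at least 2-fold higher, where 7.16% of all features were, and 1 was at least 2-fold lower (Gm10069, listed at 0), where 5.42% of all features were. By sign, 2 genes lay above 0 (Mif and Eif2c2) and 10 below. The members' median log2 ratio was −0.13, beside 0.02 for all features, 0.00 for the clusters at the same loci, −0.07 for the other clusters and 0.02 for the other named genes.

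The authors' deposited table called 4 of the 12 genes lower in supernatant (1700020N18Rik, Gm5878, Tmem194 and Stox1) and none higher, where it called 1.59% of all features lower and 0.942% higher. Every feature with a call had a q-value of 0 in the authors' deposited table, and the smallest q-value without a call was 2.28955e-43, that of Gm10069. By the authors' deposited table, 8 of the 12 were lower and 0 higher with q below 0.05, against 4.83% and 3.77% of all features. The members' median supernatant level was 298 FPKM, against 2.06 FPKM for all features, and the part of level in these shares was not tested. Clusters at the same loci also had q below 0.05 in that table, some lower, such as clusters 6 and 49, and some higher, such as clusters 47 and 102. From the authors' test statistic, the SE of the log2 ratio was 0.0323 for 1700020N18Rik and 0.0145 for Tmem194. It was 0.0585 for Mif and 0.0591 for Kcnk10, whose q-values were 0.387 and 0.419 in the authors' deposited table. An SE of this kind covers the error within 1 library of each fraction and not the spread between preparations. Equivalent read numbers implied by those SEs were approximate and ran from 989 (Mif) to 19734 (Gm5878) in lysate.

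In the pellet, all 12 genes were lower than in the lysate column of the same table. The noncoding gene 1700020N18Rik had 554 FPKM in the pellet and 3285 FPKM in lysate, a log2 ratio of −2.57. D130017N08Rik had 501 FPKM in the pellet and 2767 FPKM in lysate, a log2 ratio of −2.46. Gm5878 had 279 FPKM in the pellet and 1790 FPKM in lysate, a log2 ratio of −2.68. The pellet level was thus 16.9%, 18.1% and 15.6% of the lysate level for these 3 genes. 1700001L05Rik had 60.9 FPKM in the pellet and 401 FPKM in lysate, and its ratio of −2.70 was the lowest of the 11 genes above 0 in both columns. Gm10069 was listed at 0 in the pellet and at 35.7 FPKM in lysate.

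Among the coding genes, 1700006A11Rik had 380 FPKM in the pellet and 2258 FPKM in lysate, a log2 ratio of −2.57. Mif had 123 FPKM in the pellet and 778 FPKM in lysate, a log2 ratio of −2.66. Kcnk10 had 18.7 FPKM in the pellet and 123 FPKM in lysate, a log2 ratio of −2.66. These 3 and the pseudogene Zfp389, with 136 FPKM in the pellet and 785 FPKM in lysate (−2.52), lay near the noncoding genes. Stox1 had 85.8 FPKM in the pellet and 485 FPKM in lysate, a log2 ratio of −2.48. The highest ratios were those of Tmem194, with 194 FPKM in the pellet and 848 FPKM in lysate (−2.12), and Eif2c2, with 22.3 FPKM in the pellet and 96.96 FPKM in lysate (−2.07). For these last 2 genes the pellet FPKM was 22.9% and 23.0% of the lysate FPKM. Their log2 ratios lay 0.08 and 0.12 above the median of all features. FPKM is adjusted for library size, so such percentages are not shares of RNA recovered.

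All 12 were at least 2-fold lower and 0 at least 2-fold higher, in a table where 86.5% of all features were lower by that much and 8.75% higher. The median log2 ratio was −2.57 for the 12 genes, −2.44 for the clusters at the same loci, −2.45 for the other clusters, −2.01 for the other named genes and −2.20 for all features. Relative to the median of all features, the genes' median ratio was −0.37 and 1 of them, Gm10069, was still at least 2-fold lower. The authors' deposited table called 11 of the 12 lower (Gm10069 was the exception) and had 12 at a q-value below 0.05, where it called 18.7% of all features lower and had 69.4% lower at that q-value. It also called lower every cluster at these loci that it lists. It called none of the 12 higher, where 0.699% of all features were called higher and 5.59% were higher at that q-value. The lysate column of this table was 2.39 times that of the supernatant table for every member, so levels may not be set across the tables.

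**Figure D2:**
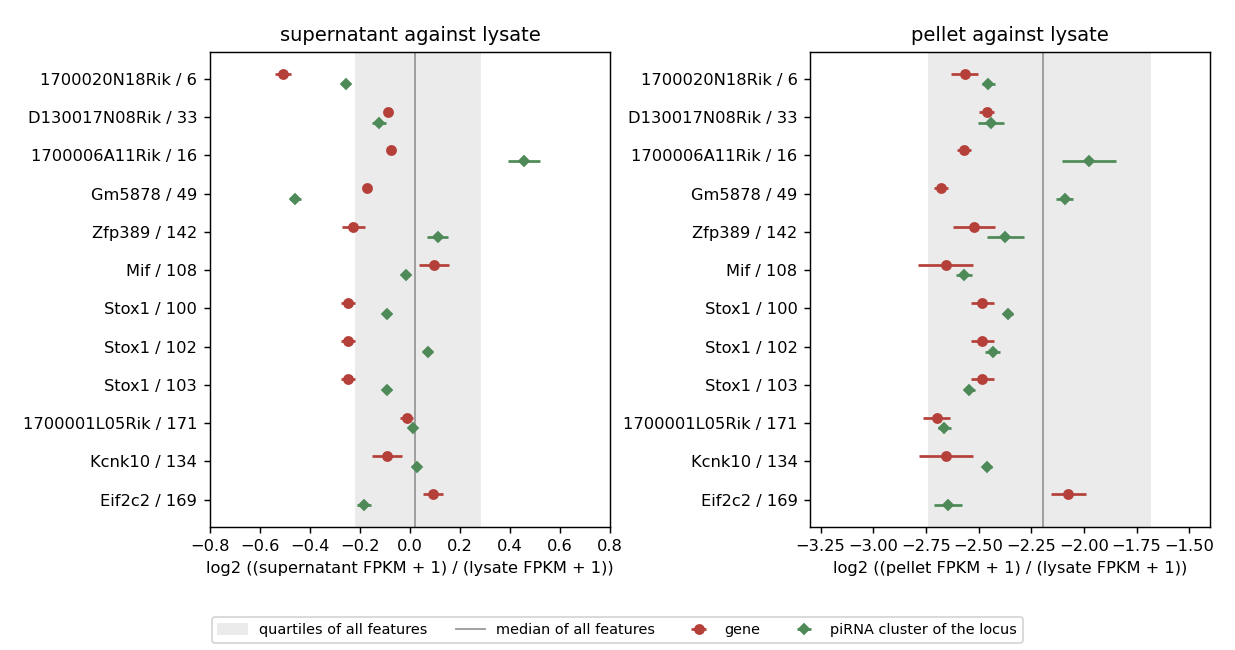
Log2 ratio of (FPKM + 1) of the fraction over lysate for the gene (circles) and for each cluster at its locus (diamonds), with bars of 1 SE derived from the authors' test statistic; the band and line give the quartiles and median of all features. Gm10069 was listed at 0 in both fractions and is not drawn. Tmem194 is not drawn either, since its cluster was at 0 in the lysate of the supernatant table and not listed for the pellet. Supernatant ratios lie near 0 and pellet ratios of the genes between −2.07 and −2.70, and in the pellet Gm5878 and 1700006A11Rik lie below their clusters by more than 0.5 and Eif2c2 above its cluster by 0.57.

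In the ACR IP, the control, the FPKM of these genes was low beside lysate. Of the 12, 4 (Mif, Stox1, Kcnk10 and Eif2c2) were listed at 0 in the ACR IP, at lysate levels of 500, 421, 107 and 66.5 FPKM. The other 8 had between 3.39 FPKM (Zfp389, lysate 683 FPKM) and 14.4 FPKM (1700020N18Rik, lysate 2810 FPKM) in the ACR IP. The noncoding genes D130017N08Rik and Gm5878 had 4.69 and 12.9 FPKM in the ACR IP against 2415 and 1529 FPKM in lysate. 1700006A11Rik and 1700001L05Rik had 12.5 and 4.79 FPKM in the ACR IP against 1963 and 348 FPKM in lysate. Tmem194 had 12.6 FPKM in the ACR IP and 735 FPKM in lysate. The members in the first 4 places in the ACR IP were among the first 5 in lysate, and 1700020N18Rik was first in both, while D130017N08Rik ranked 6 in the ACR IP and 2 in lysate. All 12 were at least 2-fold lower, where 59.0% of all features were and 36.4% were at least 2-fold higher. The members' median log2 ratio was −6.98, beside −7.57 for the clusters at the same loci, −7.19 for the other clusters, −0.05 for the other named genes and −2.70 for all features. Their share of the FPKM summed over named genes was 0.254% in the ACR IP and 36.1% in lysate.

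The ACR IP library was shallow. Among low features the ratio of ACR IP to lysate fell on round values to 4 decimals, 10 for 43 features, 20 for 30, 5 for 10, 40 for 8 and 1 for 1 feature. The 2 most frequent values were used as what 1 ACR IP read may be worth in lysate reads. With 20, the equivalent read number of the members above 0 for which it could be derived ran from 0.436 (Zfp389) to 14.8 (Tmem194), and with 10 from 0.871 to 29.6. Zfp389, listed above 0, came to less than 1 read with either, and further below 1 with 20, so these numbers are approximate. A gene listed at 0 may therefore lie below what this library could detect, and the single values of the others rest on few reads. Gm10069, at 3.86 FPKM in the ACR IP and 30.6 FPKM in lysate, had the highest ratio of the 12 (−2.70) and is the gene that was listed at 0 in the supernatant, the pellet and the round spermatids.

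In the purified chromatoid body, taken as the MVH IP, all 12 genes were above 0. The noncoding genes 1700020N18Rik, D130017N08Rik, Gm5878, 1700001L05Rik and Gm10069 had 2729, 1244, 550, 206 and 20.1 FPKM. The coding genes 1700006A11Rik, Mif, Tmem194, Stox1, Kcnk10 and Eif2c2 had 951, 534, 475, 305, 68.5 and 56.1 FPKM, and the pseudogene Zfp389 had 332 FPKM. 1700020N18Rik ranked 2 and D130017N08Rik ranked 7 among 6336 named genes of that table. The members' median was 404 FPKM, against 0.873 FPKM for the other named genes, of which 19 reached it, and the 12 genes made up 12.4% of the FPKM summed over named genes. No lysate column accompanies the MVH IP, so no ratio to lysate was taken.

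In sorted round spermatids, the cells that hold the chromatoid body, 1700020N18Rik had 2910 FPKM, D130017N08Rik 1995 FPKM, 1700006A11Rik 1145 FPKM, Gm5878 942 FPKM and Tmem194 571 FPKM. These 5 genes ranked from 3 to 8 among the 346 named genes listed there. Zfp389 had 275 FPKM, Mif 259 FPKM, Stox1 229 FPKM, 1700001L05Rik 162 FPKM, Kcnk10 51.7 FPKM and Eif2c2 40.3 FPKM, while Gm10069 was listed at 0. The members' median of 267 FPKM stood beside 12.5 FPKM for the other named genes, of which 4 reached it. That table lists 1014 features, so its other named genes are a smaller set than elsewhere.

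**Figure D3:**
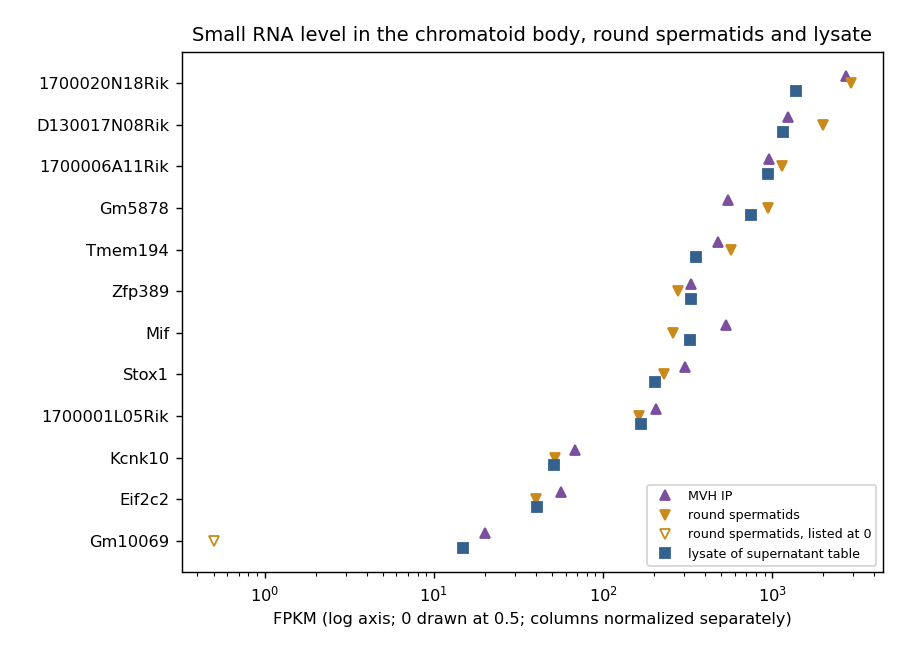
FPKM (log axis) of each gene in the MVH IP, in sorted round spermatids and in lysate (lysate of the supernatant table), separately normalized columns with no ratio between them. 1700020N18Rik was highest in the MVH IP and round spermatids, at 2729 and 2910 FPKM. Gm10069 was lowest, at 20.1 FPKM in the MVH IP and listed at 0 in round spermatids.

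The order of the genes was much alike in the supernatant, pellet, MVH IP, round spermatids and lysate. Among the members, 1700020N18Rik, D130017N08Rik, 1700006A11Rik and Gm5878 held the first 4 places in lysate, MVH IP and round spermatids, in that order, and in supernatant with the first pair exchanged. The level of 1700020N18Rik over that of D130017N08Rik was 2.19 in the MVH IP, 1.46 in round spermatids, 1.10 in the pellet, 0.887 in supernatant and 1.19 in lysate. In the middle of the order, Mif ranked 5 among the members in the MVH IP, 5 in supernatant, 7 in round spermatids and 7 in lysate. Kcnk10, Eif2c2 and Gm10069 held the last 3 places in each of these columns.

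The gene and the cluster at 1 locus were next compared within each column, where library size cancels. Stox1 enters with each of clusters 100, 102 and 103, so counts of pairs are not counts of genes. In supernatant, the gene's log2 ratio to lysate was within 0.5 of its cluster's in 11 of the 13 pairs measured, above it by more in 0 and below it by more in 2, 1700006A11Rik with cluster 16 (−0.53) and Gm10069. In the pellet, 9 of 13 pairs were within 0.5. Eif2c2 lay above cluster 169 by 0.57. 1700006A11Rik and Gm5878 lay below their clusters with differences of −0.59 each, and Gm10069, listed at 0, was also below. The 13 pairs leave out Tmem194. Its cluster 112 was at 0 in lysate and 6.23 FPKM in supernatant, was not listed for the pellet, and had 218 FPKM in round spermatids.

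Levels of gene over cluster differed widely between loci and, in round spermatids, from those in lysate. 1700006A11Rik had 26.2 times the level of cluster 16 in round spermatids, 5.47 times in the MVH IP, 6.55 times in supernatant and 9.49 times in lysate. D130017N08Rik had 10.4 times the level of cluster 33 in round spermatids and 5.89 times in lysate. These 2 genes stood further above their clusters in round spermatids than in lysate. Lysate comes from mixed tubule cells, and in such bulk samples fewer cells of a type and less small RNA per cell cannot be told apart. Only the round spermatid library was from sorted cells and carries the hetMIWI label. Cell type, sorting and that label therefore cannot be told apart in any comparison with lysate. Gm5878 lay on the other side, with 0.372 times the level of cluster 49 in round spermatids, 0.527 times in the MVH IP, 1.06 times in the pellet, 1.95 times in supernatant and 1.59 times in lysate. Cluster 49 itself had 2535 FPKM in round spermatids, 1044 FPKM in the MVH IP, 342 FPKM in supernatant and 470 FPKM in the lysate of the same table, so at this locus the cluster, and not the gene, was the higher feature in the MVH IP and round spermatids. 1700001L05Rik, Kcnk10, Mif and Eif2c2 were below their clusters in round spermatids, the MVH IP, supernatant and lysate.

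Over all pairs, the log2 ratio of gene over cluster in round spermatids was higher than in lysate in 4 of 12 and lower in 8, and 2 of the 12 were within 0.5 of it, with a median difference of −0.71. In the MVH IP it was higher in 9 of 13 and lower in 4, and 10 of the 13 were within 0.5, with a median difference of 0.10. The 4 lower pairs in the MVH IP were those of 1700006A11Rik, D130017N08Rik, Gm5878 and Zfp389. Stox1 counts with each of its clusters, on both sides in round spermatids and on the higher side in the MVH IP. The gene models and the share of reads given to each of a pair may differ between the separately made tables, and their part in these differences was not tested.

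**Figure D4:**
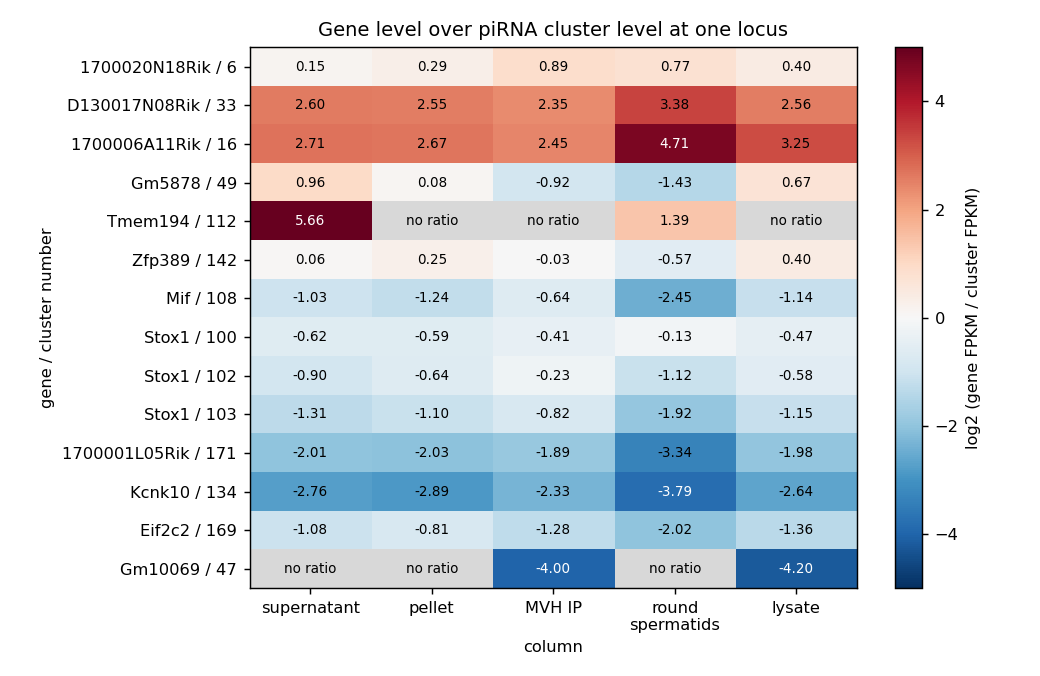
Log2 of gene FPKM over cluster FPKM at each locus in the supernatant, pellet, MVH IP, round spermatids and lysate (lysate of the supernatant table); grey cells are pairs with a value of 0 or not listed. Gm5878 over cluster 49 is negative in the MVH IP and round spermatids and positive in supernatant, pellet and lysate, and 1700006A11Rik over cluster 16 has its highest ratio in round spermatids.

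The lysate values of 2 genes stood apart from those of the other members in 1 table. The label of the lysate sample names the supernatant and pellet tables and not the ACR IP table, so whether the lysate column there holds the same library was not given. Lysate levels in the ACR IP table were 2.04 to 2.09 times those in the supernatant table for 10 of the members. Over 816 features the median factor was 2.08, with quartiles of 2.00 and 2.08. For Mif the factor was 1.54 and for Eif2c2 1.64. RefSeq lists 7 Mif pseudogenes, so reads of Mif may match more than 1 place, and the part of such reads in its values was not tested. The ratios of Mif and Eif2c2 to lysate in supernatant, 0.10 and 0.09, were the only ones of the 12 above 0. Their q-values there were 0.387 and 0.151 in the authors' deposited table.

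Genes of the piRNA machinery and genes known as sources of genic piRNAs, which arise from messenger RNAs, gave a yardstick. Of 32 piRNA pathway and chromatoid body protein genes, 17 were measured in supernatant, of which 0 were at least 2-fold higher and 0 lower; their median log2 ratio was −0.02 beside 0.02 for all features. Their levels were low: Fkbp6, a chaperone needed for piRNA production, had 1.35 FPKM in supernatant and 2.31 FPKM in lysate (−0.49), and Gtsf1, a PIWI cofactor, had 2.75 FPKM in supernatant and 1.83 FPKM in lysate (0.40). Tdrd7, a tudor protein of the chromatoid body, had 1.19 FPKM in supernatant and 0.847 FPKM in lysate (0.25), and Tdrkh, a tudor protein of mitochondria, had 0.853 FPKM in supernatant and 1.14 FPKM in lysate (−0.21). These 4 had the largest ratios of the list by size, and all 4 lay below every one of the 12 cluster genes in supernatant level except Gm10069, listed at 0. In the pellet, 11 of 11 measured pathway genes were at least 2-fold lower, beside 86.5% of all features, with medians of −2.09 for the list and −2.20 for all features. In the ACR IP 7 of 8 were, beside 59.0% of all features, with medians of −3.62 for the list and −2.70 for all features. The MVH IP table lists 25 of the 32, of which 19 were above 0.

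Of 24 genes described as genic piRNA sources, 15 were measured in supernatant, with 0 at least 2-fold higher and 0 lower. Their median log2 ratio was −0.03. In the pellet 12 of 12 were at least 2-fold lower, with a median of −2.37, and in the ACR IP 10 of 11 were, with a median of −4.81, set against the same shares and medians of all features. The MVH IP table lists 13 of them, 11 above 0, and 9 are listed for round spermatids, all above 0. Tmem194 was the only one of the 12 cluster genes on that list, and at 315 FPKM in supernatant and 355 FPKM in lysate it was well above the list's medians of 14.6 and 16.4 FPKM.

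Marker genes of the testis cell types were measured in the same columns. The 10 late spermatid markers, such as protamines and transition proteins, were all measured in supernatant with a median log2 ratio of 0.26, beside 0.02 for all features. Of the 10, 8 lay above 0 and 2 below, Gapdhs (−0.13) and Spem1 (−0.48), and 0 were at least 2-fold higher or lower. In the pellet 10 of 10 were at least 2-fold lower, beside 86.5% of all features, with medians of −2.77 for the list and −2.20 for all features. Acrosome markers had a median of 0.15 in supernatant over 5 genes, spermatocyte markers 0.12 over 4 genes and Leydig cell markers 0.21 over 3 genes. Their median supernatant levels were low, at 2.58, 1.55 and 1.65 FPKM, and each of these lists had genes on both sides of lysate. Of 6 spermatogonial markers 2 were measured in supernatant and lay on opposite sides of lysate. Id4 had 1.02 FPKM in supernatant and 0.297 FPKM in lysate (0.64). Kit had 0.479 FPKM in supernatant and 2.20 FPKM in lysate (−1.11). It had 18.2 FPKM in the pellet against 5.27 FPKM in lysate (1.61), and 54.6 FPKM in the ACR IP against 1.65 FPKM in lysate (4.39). In those fractions Kit lay on the other side of lysate from the 12 genes. At least 2-fold higher there were 8.75% and 36.4% of all features. In the ACR IP, 1 of 3 measured acrosome markers (Spaca3, 3.10) and 1 of 2 Leydig markers (Hsd3b1, 2.89) also lay above lysate. Of the late spermatid markers, 0 of 10 did. Of Sertoli cell markers 1 of 6 was measured in supernatant (−0.25), of blood markers 1 of 4 (−0.69) and of peritubular markers 0 of 3. The part of cell makeup in the values of the 12 genes was not tested.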

How the data were processed

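The authors' 5 deposited tables hold FPKM. Per the submitters' processing notes, TopHat, Cuffdiff and mm9 were used, with no roles or versions; the sources used here do not give the annotation or how multiply matching reads were treated. For supernatant and pellet there are also the authors' deposited p-values and q-values, calls and a test statistic, which is a score with no fixed range. The unit is FPKM per the file headers for round spermatids and from column names and values elsewhere. The labels do not say which pellet library the pellet column holds, nor how both MVH IP libraries were joined, so each is printed as the authors' value. A column of long RNA values beside the MVH IP one (1 column) belongs to no sample analysed here and was not used.

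Ratios are log2((fraction FPKM + 1)/(lysate FPKM + 1)) within a table, for features at 1 FPKM or more in either column, counted at 2-fold; this scale understates the change of low features. With 1 column per group no test was run. The SE of a ratio is the authors' log2 ratio divided by their test statistic. Total counts are not given, so depth is known only from steps in the values: a supernatant read was worth 0.667 of a lysate read. Locus starts, from 0 in the files, are printed from 1. Python 3.11.15 was used with matplotlib 3.10.9, scipy 1.17.1, pandas 2.3.3 and numpy 2.4.6, and the script was tested on simulated data. RefSeq gave biotypes and promoters. The rule for named genes (highest levels, highest and lowest ratios, list membership) took all 12 members and the 4 pathway genes with the largest absolute ratios. Members and lists were chosen with earlier results of these data known. Alternatives were other pseudocounts, filters, centring and overlap rules.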

Additional observations from a re-analysis of the deposited data

How the results depend on the processing

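Over 16 results, 66 alternative values were computed and 56 stayed within the limits set for them. Some of the 56 could not have changed. The stricter overlap rule took the same 12 genes, and every gene was above the filter of 1 FPKM in lysate. Values under that rule or without the filter therefore repeat the reported ones and are no check. Each member has 1 transcript in the MVH IP values, so their median FPKM with the highest single transcript per symbol is no check either. Keeping only features above 0 in both columns, which removes Gm10069, gave 0 genes at least 2-fold lower in supernatant and a median log2 ratio of −0.091. Centring on the table median left 1 gene at least 2-fold lower in the pellet with a median of −0.37, and moved the ACR IP median to −4.29. A pseudocount of 10 gave medians of −2.44 in the pellet and −5.55 in the ACR IP, and a pseudocount of 0.1 gave −7.61 in the ACR IP. The median difference between gene and cluster ratios in the ACR IP was −1.94 with a pseudocount of 0.1, against 0.25 as reported. The sign of this median thus depended on the pseudocount. Only 5 of the 13 pairs had both gene and cluster above 0 in the ACR IP. The median rank in the MVH IP was 368, or 367 with the highest single transcript per symbol. No paired analysis was possible because each group has 1 column of values and the columns carry no replicate numbers. For the same reason no MVH IP library could be left out. Low depth limits the ACR IP values, where 4 of the 12 genes were listed at 0.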
